A study of Homo sapiens with 9 samples.

Results

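Transcripts named as antisense to another gene were followed in A498 cells after depletion of ARNT or BMAL1. Members were chosen by their name, which ends in -AS and a digit, and by a mean of at least 20 reads over the 9 libraries. Of 584 names of this form, 276 reached that mean, 308 stayed below it and 111 of those had no read at all, within a table of 27673 gene names. The read level selected the members beside their name, so their abundance is a description and no test was run on it. For 18 members the mean over the other 6 libraries is below 20 when 1 group is left out, 12 of them without shARNT, 4 without shBMAL1 and 2 without shControl, so a difference between groups in these was partly set by the choice. Just inside the limit were FUT8-AS1 and PROSER2-AS1, each with a mean of 20.3 reads, and ADORA2A-AS1 with 20.4. Just outside were RGMB-AS1 with 19.8, DNAJC9-AS1 with 19.4 and LMCD1-AS1 with 19.1. For 265 of the 276 the gene named before -AS, called the sense partner here, has a row of its own, which gives 261 distinct partners because 4 partners have more than 1 antisense member. The other 11 are 8 members named after a HOX cluster and 3 others, C17orf76-AS1 among them.

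An antisense transcript is copied from the strand opposite to another gene. It can run through that gene's exons, lie inside its introns, or leave from the same promoter in the other direction, in which case the pair is called divergent. Some antisense transcripts are known to act on their neighbour in cis, others act elsewhere in the cell, and many have no known role.

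A498 is a line derived from a human clear cell renal cell carcinoma (ccRCC), in which loss of VHL leaves the hypoxia-inducible factor HIF2α stable. ARNT, also called HIF1β, is the usual partner of HIF2α on DNA, and BMAL1, listed in the table as ARNTL, pairs with CLOCK to drive circadian transcription and is the candidate second partner examined in the study. All cells carried a lentiviral pLKO.1 vector and were kept under puromycin, with a control hairpin (shControl), a hairpin against BMAL1 (shBMAL1) or a hairpin against ARNT (shARNT). Each group had 3 libraries labelled as biological replicates, and each target was depleted with a single hairpin in a single cell line. The libraries were made from stranded mRNA, but whether strand was used when reads were assigned to genes is not stated, so a read from an antisense gene and a read from its partner cannot always be told apart.

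The libraries held 35269857 to 36099083 reads each. ARNT fell from 50.5 ± 2.2 CPM (reads scaled to a common library size by TMM) in shControl to 9.47 ± 0.43 in shARNT and 32.3 ± 1.5 in shBMAL1, and ARNTL fell from 16.3 ± 0.39 to 5.02 ± 0.79 in shBMAL1 and stood at 23.8 ± 1.3 in shARNT (SD, n = 3). PAX8, KRT8 and KRT18, expressed in renal carcinoma cells, were above 30 CPM in every group. CA9, a marker of ccRCC, had a mean of 76.4, 30.2 and 1.06 CPM in shControl, shBMAL1 and shARNT, and in shARNT CA12 stood at 132 against 1186 CPM in shControl and VIM at 812 against 5974. PTPRC, PECAM1 and ALB were under 1 CPM. COL1A1, listed as a fibroblast marker, was at 237 CPM in shControl and 35.7 and 45.4 in shBMAL1 and shARNT, and its part in the results was not tested. In bulk RNA, fewer cells with a transcript and less of it per cell cannot be told apart.

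Of the 276 members, 269 were found in GENCODE 44 on GRCh37, 212 under the same symbol and 57 under a newer one, and 256 of them were annotated as long non-coding RNA and 8 as protein coding. HNRNPU-AS1 is now a name of HNRNPU itself, on the same strand, so that the name of a member does not always describe an antisense transcript. A position relative to the partner on the opposite strand could be set for 256 pairs. In 192 pairs the exons of both genes shared bases, by a median of 10.9% of the antisense exonic length. In 19 pairs the genes overlapped without shared exonic bases, and in 45 they lay apart. The starts of 124 pairs were within 1000 bases of each other. Of the members, 30 have since been renamed with -DT, the suffix for a divergent transcript.

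Promoters of 5 members whose values are described further on are shown, because their pairs stand for the patterns seen. SSTR5-AS1 is an antisense gene that rose, and FBXL19-AS1 and its partner, with nearby starts, rose together in shARNT. PRKAG2-AS1 fell far more in shARNT than its partner, whose start lies nearby. CEBPA-AS1 and OIP5-AS1 fell after BMAL1 depletion. Each run covers 250 bases before to 50 bases after the start in RefSeq on GRCh38.p14, written 5′ to 3′ on the strand of the antisense gene. Capitals mark CACGTG, the E-box bound by CLOCK and BMAL1, and ACGTG and GCGTG, cores of the hypoxia response element, on either strand. ACGTG is contained in CACGTG. SSTR5-AS1 lies at chr16:1078682-1078981 on the minus strand, FBXL19-AS1 at chr16:30923220-30923519 on the minus strand, PRKAG2-AS1 at chr7:151876792-151877091 on the plus strand, CEBPA-AS1 at chr19:33302571-33302870 on the plus strand and OIP5-AS1 at chr15:41283740-41284039 on the plus strand.
SSTR5-AS1: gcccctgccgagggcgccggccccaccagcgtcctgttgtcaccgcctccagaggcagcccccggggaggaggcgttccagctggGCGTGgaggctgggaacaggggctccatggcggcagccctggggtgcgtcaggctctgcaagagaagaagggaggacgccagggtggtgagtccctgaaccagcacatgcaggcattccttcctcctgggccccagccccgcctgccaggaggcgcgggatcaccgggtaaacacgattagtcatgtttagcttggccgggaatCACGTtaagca
FBXL19-AS1: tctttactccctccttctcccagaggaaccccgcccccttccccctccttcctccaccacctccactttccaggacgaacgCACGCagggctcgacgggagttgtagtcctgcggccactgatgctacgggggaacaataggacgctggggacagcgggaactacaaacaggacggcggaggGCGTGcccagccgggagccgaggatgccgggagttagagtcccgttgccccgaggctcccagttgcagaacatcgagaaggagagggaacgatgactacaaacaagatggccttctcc
PRKAG2-AS1: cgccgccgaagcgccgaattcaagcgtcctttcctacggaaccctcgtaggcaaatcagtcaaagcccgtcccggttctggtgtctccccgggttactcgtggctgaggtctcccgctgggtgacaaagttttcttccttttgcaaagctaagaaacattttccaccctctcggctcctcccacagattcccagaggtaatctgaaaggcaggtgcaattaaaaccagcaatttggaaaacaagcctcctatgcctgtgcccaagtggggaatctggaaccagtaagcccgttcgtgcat
CEBPA-AS1: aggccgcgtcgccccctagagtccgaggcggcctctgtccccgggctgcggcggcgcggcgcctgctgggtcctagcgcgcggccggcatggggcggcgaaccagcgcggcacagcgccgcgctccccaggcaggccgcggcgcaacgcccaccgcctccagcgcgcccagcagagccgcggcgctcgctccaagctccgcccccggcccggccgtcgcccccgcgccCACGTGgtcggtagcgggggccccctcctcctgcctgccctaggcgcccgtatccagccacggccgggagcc
OIP5-AS1: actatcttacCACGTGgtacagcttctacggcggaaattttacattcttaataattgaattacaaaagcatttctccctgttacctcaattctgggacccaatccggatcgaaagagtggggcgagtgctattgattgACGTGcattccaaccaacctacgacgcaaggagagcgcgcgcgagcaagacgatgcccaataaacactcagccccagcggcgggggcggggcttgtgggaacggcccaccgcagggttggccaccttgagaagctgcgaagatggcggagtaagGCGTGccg

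The CACGTG hexamer began 22 bases before the start of CEBPA-AS1 and 240 bases before that of OIP5-AS1. The PRKAG2-AS1 window held none of the 3 motifs. Of all 35116 RefSeq promoters of this length, 7.26% held CACGTG, 21.4% held ACGTG and 36.5% held GCGTG. RefSeq promoters were found for 216 members, 266 windows in all, and these held the motifs in 10.2%, 30.8% and 56.0%. Among the 65 windows of members called lower after BMAL1 depletion, 7 held CACGTG, 10.8%. Among the 133 windows of members called lower after ARNT depletion, 15 did, 11.3%. A match describes letters in a window and was not tested as a binding site.

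Antisense transcripts made up a small part of the libraries. In shControl the members held 0.318% to 0.326% of all reads, in shBMAL1 0.311% to 0.314%, and in shARNT 0.265% to 0.271%. The ranges of the 3 groups did not overlap. Much of this difference was in 2 members. C17orf76-AS1, now named SNHG29 and a host gene of small nucleolar RNAs, and AFAP1-AS1, opposite the actin-binding protein gene AFAP1, together held 31.2% to 32.3% of member reads in shControl, 30.2% to 31.4% after BMAL1 depletion and 19.0% to 19.4% after ARNT depletion. Without this pair of genes the members held 0.218% to 0.223% of reads in shControl, 0.215% to 0.219% after BMAL1 depletion and 0.214% to 0.220% after ARNT depletion, and the ranges overlapped. On the TMM scale the remaining members summed to 2338 to 2384 CPM in shControl, 2232 to 2252 after BMAL1 depletion and 1946 to 1981 after ARNT depletion, with no overlap.

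C17orf76-AS1 had 21517, 20955 and 20876 reads in shControl, 16117, 16863 and 17401 in shBMAL1, and 9663, 9539 and 9865 in shARNT. It fell in both depletions, by 1.38 ± 0.04 on the log2 scale (SE) in shARNT and by 0.38 ± 0.04 in shBMAL1. AFAP1-AS1 was at 450 ± 17 CPM in shControl, 500 ± 14 in shBMAL1 and 220 ± 1.2 in shARNT, so it fell by 1.04 ± 0.04 after ARNT depletion and rose by 0.15 ± 0.04 after BMAL1 depletion. Its partner AFAP1 had 265 to 301 reads in shControl against 14388 to 15631 for the antisense gene, and rose in both depletions, by 0.26 ± 0.10 and 0.41 ± 0.10. Next in abundance was FGD5-AS1, at 126 ± 3.7, 106 ± 2.0 and 69.0 ± 1.2 CPM in shControl, shBMAL1 and shARNT, while FGD5 itself had at most 9 reads in any library. BAIAP2-AS1 fell by 1.07 ± 0.05 in shARNT and its neighbour BAIAP2, whose start lies 578 bases away, by 0.92 ± 0.06.

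**Figure D1:**
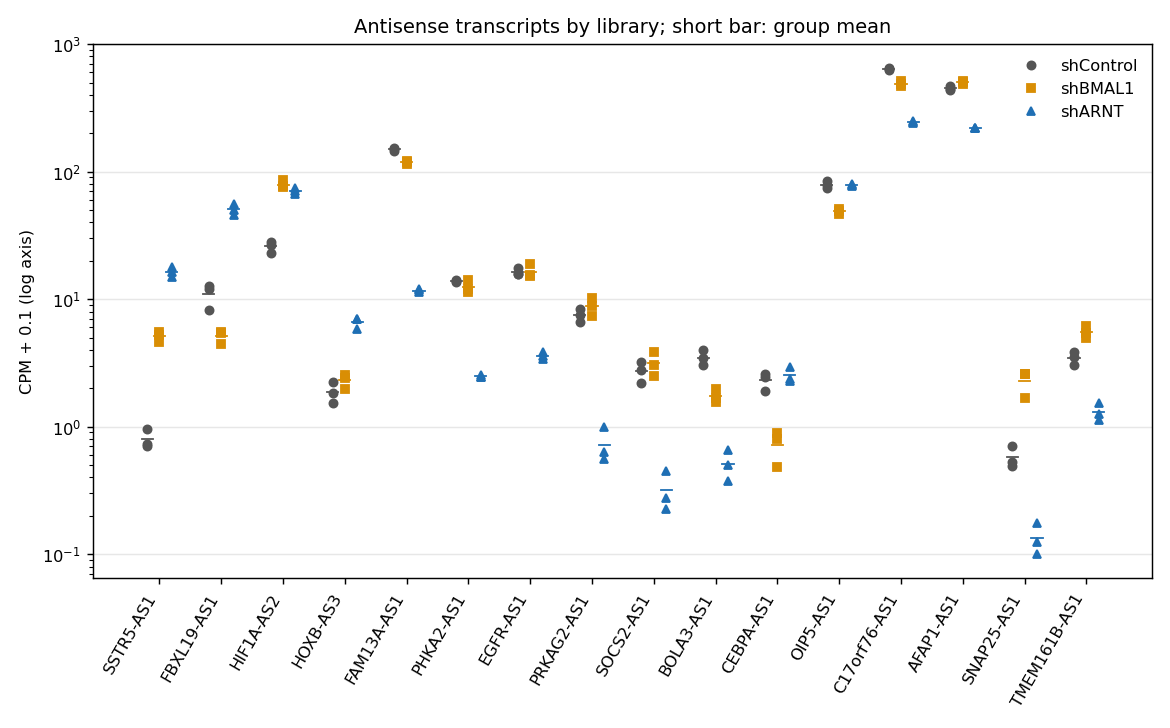
CPM plus 0.1 on a log axis for 16 antisense transcripts in each of the 9 libraries, with grey circles for shControl, orange squares for shBMAL1, blue triangles for shARNT and a short bar at each group mean. SSTR5-AS1 has group means of 0.696, 5.04 and 16.2 CPM in that order, FAM13A-AS1 falls only slightly in shBMAL1 but to 11.6 CPM in shARNT, and OIP5-AS1 is lower in shBMAL1 alone.

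Depletion of ARNT changed most members, more often downwards. Against shControl, 199 of 276 antisense transcripts were called at an adjusted p under 0.1, 72.1%, where 81.8% of all 15551 tested genes were called. Higher calls numbered 81, 29.3% of the members against 40.5% of all genes, and lower calls 118, 42.8% against 41.3%. The median log2 fold change of the members was -0.18, against -0.01 for all genes. Library size in place of TMM moved the median of all genes up by 0.24 and gave 103 higher and 94 lower calls, a share of higher calls of 52.3% in place of 40.7%. The median of the members then stood 0.17 below that of all genes, the same distance as under TMM. With a change of at least 1.5-fold asked as well, 56.2% of the members and 53.4% of all genes were called.

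Depletion of BMAL1 changed fewer members and by less. Against shControl, 128 of 276 were called, 46.4%, with a background of 63.3%. Of these, 58 were higher, 21.0% against 31.9% of all genes, and 70 were lower, 25.4% against 31.5%. With library size alone the counts were 71 and 66, so the balance between rises and falls turned. The median was -0.02, and 19.9% of the members were called and changed by at least 1.5-fold, against 23.5% of all genes. In the direct contrast of shARNT with shBMAL1, 207 members were called, 75% against 81.2% of all genes, with 77 higher in shARNT, 27.9% against 40.1%, and 130 lower, 47.1% against 41.1%. The 1.5-fold share was 53.6%, against 52.6%. Library size in place of TMM gave 100 higher and 103 lower there.

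**Figure D2:**
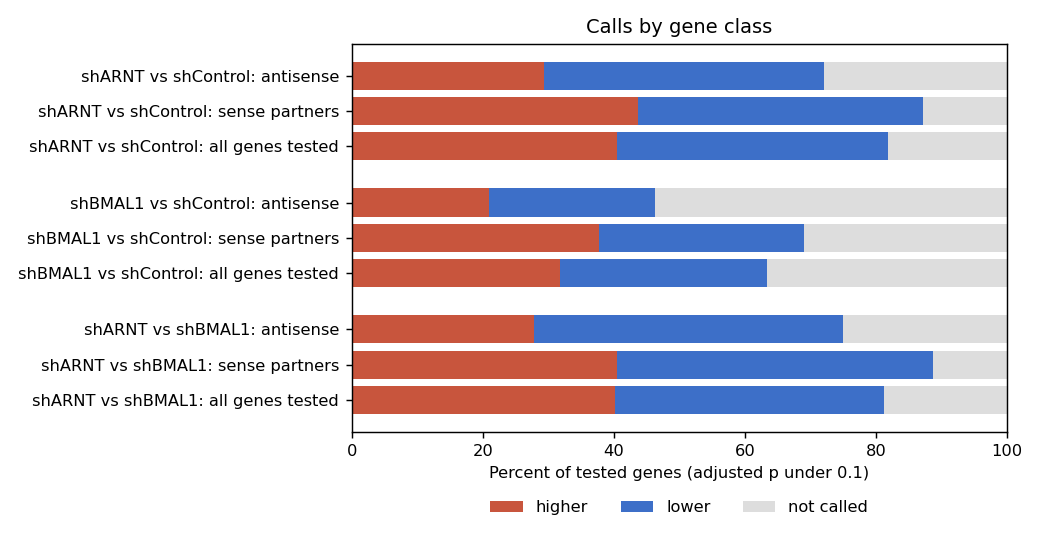
Percent of tested genes called higher (red), lower (blue) or not called (grey) at an adjusted p under 0.1 in the 3 contrasts, for 276 antisense transcripts, 249 sense partners and all 15551 genes. In each contrast the antisense bar has the largest grey part, and its red part is shorter than that of all genes.

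The called shares moved with read level. The median standard error of the log2 fold change was 0.18 for the members and 0.09 for all genes in shARNT against shControl. For the 94 members with a mean of 200 reads and more, 84.0% were called in that contrast and 88.1% of the 10512 genes at that level. For the 75 members with 20 to 50 reads, 58.7% were called against 67.1% of all genes at that level. In shBMAL1 against shControl the values were 69.2% against 72.8% in the upper class and 25.3% against 39.9% in the lower class. Directions also differed by level. In shARNT against shControl the members with 20 to 50 reads had 22 higher and 22 lower calls. All genes at that level had 327 and 563. With 50 to 200 reads the counts were 30 and 46, and 771 and 1032 for all genes. With 200 reads and more they were 29 and 50, and 4903 and 4360 for all genes. The share of each gene class is a description of these libraries, and the part of the read level in the difference was not tested.

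FAM13A-AS1 was abundant in shControl and fell steeply after ARNT depletion. It had 5052, 4768 and 4975 reads in shControl, 4157, 4090 and 3930 in shBMAL1, and 470, 444 and 460 in shARNT. The 3 groups did not overlap. The fall was 3.69 ± 0.05 on the log2 scale in shARNT (edgeR adjusted p = 3.1e-22) and 0.33 ± 0.04 in shBMAL1 (adjusted p = 1.4e-06). FAM13A fell in parallel, by 3.50 ± 0.05 and 0.30 ± 0.04. On GRCh37 the antisense gene lies at chr4:89630449-89651254 on the plus strand and overlaps the 3′ end of FAM13A, with 8.43% of its exonic bases inside FAM13A exons, and the starts are 347396 bases apart. The antisense share of the reads of this pair was 22.7% ± 0.34 in shControl, 22.3% ± 0.52 in shBMAL1 and 20.5% ± 0.90 in shARNT.

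EGFR-AS1 and PHKA2-AS1 also went with their partners. EGFR-AS1, opposite the gene of the epidermal growth factor receptor, was at 16.3 ± 1.2, 16.4 ± 2.1 and 3.49 ± 0.22 CPM in shControl, shBMAL1 and shARNT. It fell by 2.22 ± 0.11 in shARNT and EGFR by 2.01 ± 0.07, while in shBMAL1 the changes were 0.01 ± 0.10 and -0.02 ± 0.07 and neither was called. PHKA2-AS1 lies opposite the gene of a subunit of phosphorylase kinase, and 82.7% of its exonic bases are also exonic in PHKA2. It had 444 to 461 reads in shControl, 384 to 481 after BMAL1 depletion and 93 to 97 after ARNT depletion, and fell by 2.52 ± 0.11 while PHKA2 fell by 2.61 ± 0.07. GSN-AS1 and GSN, the gene of the actin-severing protein gelsolin, fell by 2.31 ± 0.15 and 2.05 ± 0.04 in shARNT.

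SOCS2-AS1 had 89, 103 and 70 reads in shControl, 128, 83 and 101 in shBMAL1, and 5, 7 and 14 in shARNT. It fell by 3.57 ± 0.32 in shARNT, and SOCS2, a suppressor of cytokine signalling whose start is 907 bases away, fell by 2.97 ± 0.20. In shBMAL1 neither was called. BOLA3-AS1, now BOLA3-DT, was at 3.38 ± 0.46, 1.64 ± 0.21 and 0.412 ± 0.14 CPM in shControl, shBMAL1 and shARNT. It fell in both depletions, by 3.02 ± 0.25 and 1.04 ± 0.21, while BOLA3, needed for iron-sulfur cluster assembly in mitochondria, fell by 1.00 ± 0.13 in shARNT and stood at -0.04 ± 0.12 in shBMAL1.

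PRKAG2-AS1 separated from its partner. It had 217, 270 and 245 reads in shControl, 250, 347 and 297 in shBMAL1, and 21, 35 and 18 in shARNT, where every library was below every other one. The fall in shARNT was 3.56 ± 0.20 (adjusted p = 1.9e-12), against 0.58 ± 0.07 for PRKAG2, a regulatory subunit of the AMP-activated protein kinase. In shBMAL1 the antisense change was 0.24 ± 0.15 (adjusted p = 0.18) and PRKAG2 fell by 0.61 ± 0.07. Their starts are 73 bases apart, they run in opposite directions and their 5′ ends overlap. Of the antisense exonic bases, 5.29% lie inside PRKAG2 exons. The antisense share of the reads of the pair was 12.7% ± 1.3 in shControl, 20.8% ± 2.1 in shBMAL1 and 1.82% ± 0.66 in shARNT.

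The steepest fall after ARNT depletion, that of TRG-AS1, rests on few reads. TRG-AS1 had 66, 62 and 40 reads in shControl, 11, 19 and 23 in shBMAL1, and 1, 3 and 1 in shARNT, with no read in any library for the row named TRG. The fall was 5.22 ± 0.50 in shARNT and 1.71 ± 0.34 in shBMAL1. TRG-AS1 reached the mean of 20 reads only through shControl, so these falls were partly set by the choice of members. SNAP25-AS1 had 13, 20 and 14 reads in shControl, 85, 85 and 54 in shBMAL1, and 0, 3 and 1 in shARNT. It was called higher after BMAL1 depletion, by 2.19 ± 0.33, and lower after ARNT depletion. Its 4 reads in shARNT leave the size of that fall loosely fixed. SNAP25-AS1 reached the mean of 20 reads only through shBMAL1, so its rise was partly set by the choice as well. SNAP25, a SNARE protein of vesicle fusion, fell by 1.72 ± 0.24 in shARNT and stood at -0.04 ± 0.21 in shBMAL1.

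SSTR5-AS1 rose most. Opposite the gene of a somatostatin receptor, it had 20, 28 and 21 reads in shControl, 177, 156 and 184 in shBMAL1, and 698, 639 and 591 in shARNT. No library of one group reached another group's range. The rise was 23.2-fold in shARNT (log2 4.54 ± 0.15, adjusted p = 3.4e-16) and 7.21-fold in shBMAL1 (2.85 ± 0.17, adjusted p = 2e-11), and the direct difference was 1.69 ± 0.11. SSTR5 rose by 1.28 ± 0.20 and 1.41 ± 0.20, with 30 to 33 reads in shControl, 79 to 93 after BMAL1 depletion and 81 to 101 after ARNT depletion, and its direct difference of -0.12 ± 0.18 was not called (adjusted p = 0.53). The antisense share of their reads was 42.1% ± 4.9, 66.7% ± 0.52 and 87.5% ± 2.1 in shControl, shBMAL1 and shARNT. The genes overlap on GRCh37 at chr16:1114087-1128731 and chr16:1122747-1131454, with no shared exonic base. The RefSeq starts on GRCh38.p14 are 95 bases apart, while the main GENCODE transcripts start 5926 bases apart.

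FBXL19-AS1 moved in opposite directions in the depletions. It had 271, 392 and 414 reads in shControl, 150, 184 and 185 in shBMAL1, and 2221, 1986 and 1803 in shARNT, with no overlap between groups. It rose 4.66-fold in shARNT (2.22 ± 0.11) and fell in shBMAL1 to 0.466 of its control level (-1.10 ± 0.14). FBXL19, an F-box protein that binds CpG islands, rose by 1.59 ± 0.04 in shARNT and fell by 0.09 ± 0.04 in shBMAL1 (adjusted p = 0.057). The RefSeq starts are 214 bases apart.

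HIF1A-AS2 rose together with HIF1A, the gene of the oxygen-regulated α subunit of HIF1, in both depletions. It had 883, 760 and 922 reads in shControl, 2570, 2632 and 2896 in shBMAL1, and 2779, 2961 and 2665 in shARNT. Relative to shControl it rose by 1.45 ± 0.07 in shARNT and 1.61 ± 0.07 in shBMAL1, and HIF1A by 1.48 ± 0.04 and 1.59 ± 0.04. The antisense share of the reads of the pair was 15.6% ± 1.3, 15.8% ± 0.79 and 15.4% ± 1.1 in shControl, shBMAL1 and shARNT. HIF1A-AS2 was not found in GENCODE, so its exon overlap with HIF1A could not be set and the pair is in none of the overlap classes. Whether the reads counted for HIF1A-AS2 came from HIF1A was not tested, so a rise of the antisense transcript apart from HIF1A is not shown. The direct difference of HIF1A-AS2, -0.16 ± 0.06, lost its call without the third library of shBMAL1 (-0.10) or of shARNT (-0.12), and was 0.03 with library size alone.

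Of the members that reached the read limit only through shARNT, whose rises were partly set by that limit, PROSER2-AS1, with 4 to 12 reads in shControl and 40 to 50 in shARNT, rose by 2.43 ± 0.41, and PROSER2 by 3.01 ± 0.14. ADORA2A-AS1 had 1 to 6.12 reads in shControl, 4 to 5.11 after BMAL1 depletion and 43.0 to 63.9 after ARNT depletion. ADORA2A, an adenosine receptor gene, had no read in shControl or shBMAL1 and 1, 3 and 9.23 in shARNT. NPPA-AS1, opposite the atrial natriuretic peptide gene, had 6.91 to 8.45 reads in shControl, 0 to 4.62 after BMAL1 depletion and 69.4 to 75.6 after ARNT depletion. Its fall in shBMAL1, 1.30 ± 0.62, was not called when any library of shControl was left out, nor without the second shBMAL1 library (-0.73).

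The members lowered by BMAL1 depletion were led by CEBPA-AS1, now CEBPA-DT. It had 60, 78 and 82 reads in shControl, 13, 24 and 27 in shBMAL1, and 113, 89 and 86 in shARNT. It fell by 1.82 ± 0.27 in shBMAL1 (adjusted p = 6.7e-06) and its change of 0.13 ± 0.22 in shARNT was not called (adjusted p = 0.6). CEBPA, a basic leucine zipper transcription factor gene whose RefSeq start is 287 bases away, fell by 0.88 ± 0.23 in shBMAL1 and rose by 1.51 ± 0.19 in shARNT. CEBPA-AS1 made up 57.1% ± 5.3 of the reads of the pair in shControl, 40.1% ± 5.4 in shBMAL1 and 33.6% ± 4.5 in shARNT.

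OIP5-AS1 had 2800, 2585 and 2442 reads in shControl, 1683, 1604 and 1737 in shBMAL1, and 3105, 3022 and 3171 in shARNT. It fell by 0.69 ± 0.05 in shBMAL1 (adjusted p = 1.3e-09) and changed by -0.01 ± 0.05 in shARNT (adjusted p = 0.85). That last value became 0.23 with library size alone. OIP5, a centromere protein gene, had 62 to 132 reads in all libraries and was not called in shBMAL1 (-0.24 ± 0.19). PSMG3-AS1 fell by 0.70 ± 0.05 in shBMAL1 while PSMG3, a proteasome assembly chaperone gene that starts 41 bases away, rose by 0.30 ± 0.07.

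BOK-AS1 and BOK, a BCL2 family gene, fell in both depletions, by 1.30 ± 0.24 and 1.54 ± 0.14 in shBMAL1 and by 1.01 ± 0.23 and 1.06 ± 0.13 in shARNT. LEF1-AS1 and LEF1, a transcription factor gene of the Wnt pathway, fell by 1.12 ± 0.29 and 1.29 ± 0.14 in shBMAL1. In shARNT the values were -0.67 ± 0.27 for LEF1-AS1, a call lost without the third shARNT library (-0.56) and with library size alone (-0.43), and -1.09 ± 0.13 for LEF1. DNAJC27-AS1 fell by 1.27 ± 0.23 in shBMAL1 and ARHGEF26-AS1, with 15 reads in each shControl library, by 1.14 ± 0.44. The latter was not called without the first (-0.86) or the third (-0.95) shBMAL1 library.

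Among the rises after BMAL1 depletion, RASSF8-AS1 had 29 to 52 reads in shControl, 85 to 115 after BMAL1 depletion and 68 to 101 after ARNT depletion, and rose by 1.30 ± 0.24 in shBMAL1 while RASSF8 rose by 0.74 ± 0.11. ARHGAP5-AS1 rose by 1.23 ± 0.21 in shBMAL1 and was at -0.03 ± 0.22 in shARNT, and ARHGAP5 rose by 0.58 ± 0.06. LRP4-AS1 rose by 1.16 ± 0.13 with LRP4 at 1.26 ± 0.06, and in shARNT both fell, by 0.64 ± 0.14 and 0.38 ± 0.06. C1QTNF1-AS1 also rose in shBMAL1 (0.67 ± 0.15) and fell in shARNT (-2.44 ± 0.19), and C1QTNF1, a secreted protein gene, took the same directions (1.39 ± 0.16 and -1.54 ± 0.20). Both depletions were compared with the same shControl libraries.

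Pairs more often changed in the same direction than in opposite directions. Both genes could be tested in 253 pairs. In shARNT against shControl both were called in 161, with 112 in the same direction (50 higher, 62 lower) and 49 in opposite directions. In 32 of the 49 the antisense gene fell while its partner rose, and in 17 it was the reverse. In shBMAL1 against shControl both were called in 89, with 73 in the same direction and 16 opposite. In the direct contrast the numbers were 172, 127 and 45. Among the partners tested, 109 were higher and 108 lower in shARNT, and 94 and 78 in shBMAL1. How often genes paired otherwise go the same way was not tested. Across the 253 pairs the log2 fold changes of antisense and partner had a Pearson correlation of 0.51 after ARNT depletion, 0.53 after BMAL1 depletion and 0.51 in the direct contrast, a description over pairs that share their libraries and in many cases their reads.

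**Figure D3:**
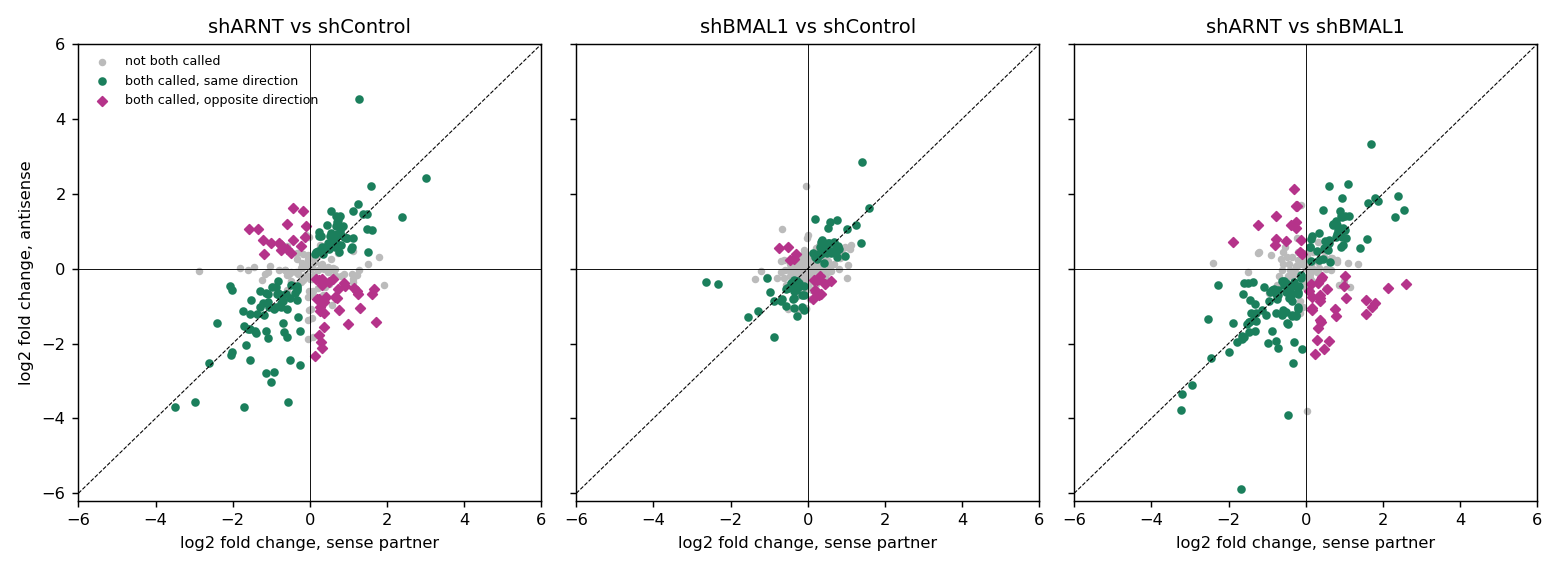
Log2 fold change of the antisense transcript against that of its sense partner in 253 pairs for the 3 contrasts, with green circles for pairs called in the same direction, purple diamonds for pairs called in opposite directions, grey for the rest and a dashed line at equal change. In shARNT vs shControl 112 pairs are green and 49 purple, and in shBMAL1 vs shControl 73 and 16, with points closer to 0.

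The gap between the changes of both genes of a pair was smaller where more exonic sequence was shared. In shARNT against shControl the median absolute gap between the log2 fold changes was 0.82 in the 62 pairs with no shared exonic base, 0.59 in the 82 pairs with up to 10% of the antisense exons shared, 0.56 in the 84 with 10 to 50%, and 0.16 in the 18 with more. Without the last, thinly filled class the range was 0.56 to 0.82. In shBMAL1 the medians were 0.41, 0.30, 0.24 and 0.10, and in the direct contrast 0.75, 0.53, 0.36 and 0.13. The Pearson correlation did not follow this order. It was 0.43, 0.54, 0.41 and 0.95 in the 4 classes for shARNT and 0.51, 0.54, 0.44 and 0.93 for the direct contrast, so that it stood out only in the class of 18 pairs. Among pairs with no shared exonic base and both genes called, 28 went the same way and 14 opposite ways in shARNT, and 12 and 5 in shBMAL1. Where starts lay within 1000 bases, 51 of 82 pairs went the same way in shARNT, 62.2%, and where they lay further apart, 56 of 74, 75.7%. The difference was not tested.

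**Figure D4:**
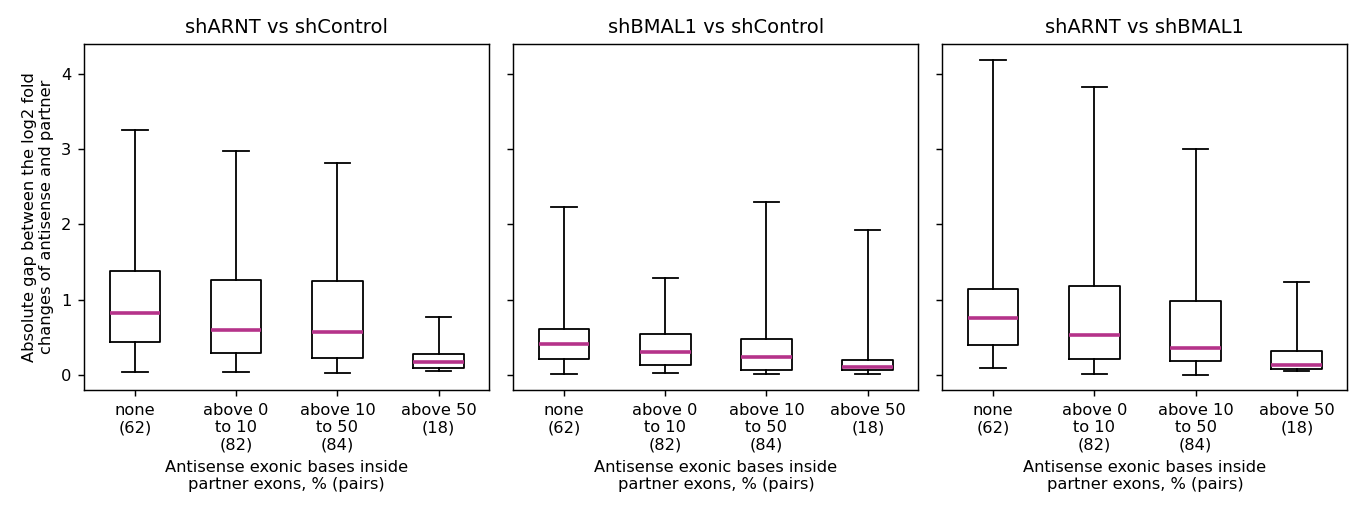
Absolute gap between the log2 fold changes of antisense and partner by the percent of antisense exonic bases inside partner exons, with the number of pairs in brackets, boxes for quartiles, a purple median and whiskers to the extremes. The median gap in shARNT vs shControl is 0.82 with no shared base and 0.16 above 50%.

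The files themselves show reads divided between the genes of a pair. Of the 276 members, 86 had a value that was not a whole number in at least 1 library. In 73 pairs both genes had such a value in the same library, and in 69 of these pairs the sum of antisense and partner was whole, within 0.02 reads, in every such library. ADORA2A-AS1, DNAH17-AS1, MAP3K14-AS1 and ST7-AS1 were the exceptions. For example, FBXL19-AS1 had 271.236 reads and FBXL19 2462.76 in the first shControl library, a sum of 2734, and NOP14-AS1 and NOP14 had 991.099 and 2940.9 in the first shARNT library, a sum of 3932. In 69 of the 73 pairs the annotated exons shared bases. PHKA2-AS1, with 82.7% of its exonic bases shared, held whole numbers throughout. In the 181 pairs with whole numbers for both genes in all libraries, 71 went the same way and 35 opposite ways in shARNT, and 40 and 10 in shBMAL1.

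Several pairs that changed in opposite directions had divergent starts. MAFG-AS1 starts 94 bases from MAFG, the gene of a small Maf transcription factor, and shares no base with it. It had 409, 454 and 403 reads in shControl, 501, 544 and 629 in shBMAL1, and 350, 317 and 282 in shARNT, and fell by 0.68 ± 0.11 in shARNT while MAFG rose by 1.60 ± 0.07. TMEM161B-AS1, 38 bases from TMEM161B, had 97 to 123 reads in shControl, 166 to 207 after BMAL1 depletion and 41 to 57 after ARNT depletion. It fell by 1.47 ± 0.18 in shARNT while TMEM161B rose by 0.98 ± 0.08, and both rose in shBMAL1, by 0.68 ± 0.16 and 0.52 ± 0.09. FOXN3-AS1, 121 bases from the forkhead repressor gene FOXN3, had 28 to 43 reads in shControl and 8 to 20 in shARNT and fell by 1.42 ± 0.37, while FOXN3 rose by 1.71 ± 0.14.

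The antisense share of these pairs shifted accordingly. MAFG-AS1 held 48.3% ± 1.8 of the reads of its pair in shControl, 56.5% ± 0.92 in shBMAL1 and 16.2% ± 1.3 in shARNT. TMEM161B-AS1 held 25% ± 3.9, 27.1% ± 3.0 and 5.71% ± 0.97. The reverse pattern was seen for GNG12-AS1, opposite a G protein γ subunit gene, which rose by 1.06 ± 0.16 in shARNT while GNG12 fell by 1.58 ± 0.07, so that its share went from 8.47% ± 1.4 to 36.7% ± 2.4. TFAP2A-AS1 rose by 1.05 ± 0.27 and TFAP2A, the AP-2α transcription factor gene, fell by 1.35 ± 0.10 in the same contrast. ZSCAN16-AS1 fell by 1.04 ± 0.18 while ZSCAN16 rose by 1.29 ± 0.41.

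**Figure D5:**
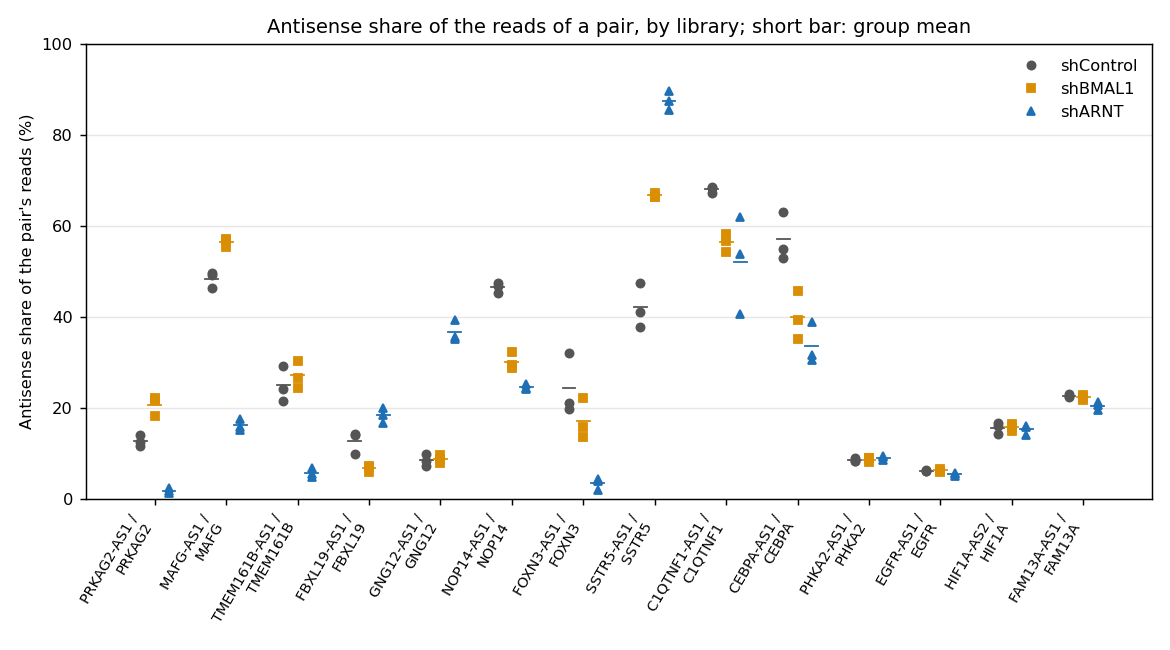
Antisense share of the reads of a pair in percent for 14 pairs in each library, with grey circles for shControl, orange squares for shBMAL1, blue triangles for shARNT and a short bar at each group mean. The share falls in shARNT for PRKAG2-AS1 (12.7% to 1.82%) and MAFG-AS1 (48.3% to 16.2%), rises for SSTR5-AS1 (42.1% to 87.5%), and stays near 15% for HIF1A-AS2.

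In shBMAL1 the opposite changes were smaller, and none of the 16 pairs had a change of at least 1.5-fold in both genes. SLC2A1-AS1 starts 210 bases from SLC2A1, the gene of the glucose transporter GLUT1. It had 68, 44 and 81 reads in shControl, 120, 79 and 95 in shBMAL1, and 44, 36 and 43 in shARNT, so the first 2 groups overlapped. SLC2A1 fell by 0.74 ± 0.04 in shBMAL1 and by 1.21 ± 0.04 in shARNT, while SLC2A1-AS1 rose by 0.56 ± 0.23 in shBMAL1 and fell by 0.91 ± 0.25 in shARNT. The rise was not called without the second shControl (0.35) or the first shBMAL1 library (0.39). NR2F1-AS1 rose by 0.58 ± 0.11 in shBMAL1 and the nuclear receptor gene NR2F1 fell by 0.51 ± 0.08, and both fell in shARNT. NOP14-AS1 fell in both depletions, by 0.68 ± 0.07 and 0.77 ± 0.07, while NOP14, a ribosome biogenesis gene, rose by 0.34 ± 0.06 and 0.65 ± 0.06. Both genes of this pair held fractions that summed to whole reads in all 9 libraries. The sums were 2956, 2870 and 2754 in shControl, 3062, 2865 and 2651 in shBMAL1, and 3932, 3623 and 3871 in shARNT. How far the opposite changes came from the division of reads between NOP14-AS1 and NOP14 was not tested. ATP6V0E2-AS1 fell by 0.42 ± 0.16 in shBMAL1 and LBX2-AS1 by 0.34 ± 0.07, and their partners ATP6V0E2, a proton pump subunit gene, and LBX2, a homeobox gene, rose by 0.45 ± 0.08 and 0.61 ± 0.25. The ATP6V0E2-AS1 call was lost without the first (-0.36) or the third (-0.32) shControl library.

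In the direct contrast MRPL23-AS1 was lower in shARNT by 3.90 ± 0.45 on the log2 scale. It had 13 to 20 reads in shControl, 32.0 to 62.4 after BMAL1 depletion and 2 to 4 after ARNT depletion. MRPL23-AS1 reached the mean of 20 reads only through shBMAL1, so this difference was partly set by the choice of members. MRPL23, a mitochondrial ribosomal protein gene, was lower by 0.47 ± 0.05. PPP1R26-AS1 and ADPGK-AS1 were higher in shARNT than in shBMAL1 by 2.20 ± 0.16 and 2.14 ± 0.31. DPH6-AS1 was lower in shARNT than in shBMAL1 by 1.21 ± 0.37 and DPH6 higher by 1.56 ± 0.13, but DPH6-AS1 had 11.8, 19.6 and 53.9 reads in the 3 shARNT libraries, which overlap the 45.9 to 69.9 of shBMAL1. MRVI1-AS1 was lower by 0.93 ± 0.41 and MRVI1 higher by 1.79 ± 0.38, and the former was not called without the second shBMAL1 library (-0.42).

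Antisense genes of the HOX clusters, which hold the homeobox genes of body patterning, had 8 members. Of these, 3 were higher and 4 lower in shARNT, where 40.5% and 41.3% of all genes were, and 4 were higher and 1 lower in shBMAL1, where 31.9% and 31.5% were. The shARNT counts lie near those shares, and with library size alone the counts were 3 and 1 in shARNT and 4 and 1 in shBMAL1. HOXB-AS3 had 58, 47 and 71 reads in shControl, 83, 65 and 79 in shBMAL1, and 271, 270 and 227 in shARNT, and rose by 1.86 ± 0.17 in shARNT. HOXB-AS1 rose by 0.98 ± 0.15 and HOXA-AS4 by 0.75 ± 0.10, while HOXD-AS2 fell by 0.88 ± 0.11. HOXA-AS2 rose in shBMAL1, by 0.64 ± 0.07, and stood at -0.28 ± 0.07 in shARNT, where library size alone gave -0.04 with no call. HOXA-AS3 was at 0.31 ± 0.07 and -0.37 ± 0.07, the latter -0.13 with library size alone and not called.

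The groups that follow were drawn from a list of partner names and do not hold every member of their kind. The list for cell cycle and DNA repair genes leaves out PCNA-AS1, SGOL1-AS1, SPAG5-AS1 and HLTF-AS1, among others. Of its 10 members, 5 were lower and none higher in shBMAL1, against 31.5% and 31.9% of all genes. The counts were the same under library size alone. In shARNT 3 were higher and 2 lower, against 40.5% and 41.3%, which became 7 and 0 with library size alone. In the direct contrast 8 were higher and 1 lower, against 40.1% and 41.1%. Among the higher ones, TP73-AS1 lost its call without the third shBMAL1 (0.12) or the first shARNT library (0.12). MCM3AP-AS1 lost its call without the first (0.19) or the third (0.19) shARNT library. The count of rises in shBMAL1 was 0 with edgeR, 0 at an unadjusted p under 0.05 and 0 with DESeq2. TMPO-AS1, opposite the lamina-associated polypeptide gene TMPO, had 262, 309 and 271 reads in shControl, 164, 190 and 240 in shBMAL1, and 459, 536 and 586 in shARNT. It rose by 0.65 ± 0.12 in shARNT and fell by 0.55 ± 0.13 in shBMAL1, while TMPO rose by 0.69 ± 0.06 and stood at -0.03 ± 0.06. RAD21-AS1 and the cohesin gene RAD21 rose in shARNT, by 1.30 ± 0.16 and 0.73 ± 0.04.

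The list for transcription factor genes leaves out CEBPA-AS1, MAFG-AS1, TFAP2A-AS1, FOXN3-AS1 and LBX2-AS1, among others. Of its 10 members, 3 were higher and 2 lower in shARNT, against 40.5% and 41.3% of all genes. With library size alone the counts were 6 and 1. In shBMAL1 2 were higher and 2 lower, against 31.9% and 31.5%. ZEB1-AS1 had 136, 164 and 142 reads in shControl, 111, 152 and 131 in shBMAL1, and 271, 234 and 252 in shARNT. It rose by 0.52 ± 0.14 in shARNT while ZEB1, a repressor of epithelial genes, fell by 0.60 ± 0.08. FOXD2-AS1 fell by 0.73 ± 0.12 in shBMAL1 and was at -0.02 ± 0.11 in shARNT, which became 0.22 with library size alone. The list for receptor, ligand or adhesion genes leaves out ADORA2A-AS1, NPPA-AS1 and LRP4-AS1, among others. Of its 6 members, 1 was higher and 3 were lower in shARNT (2 and 2 with library size alone). In shBMAL1 1 was higher and 2 were lower (1 and 1 with library size alone). The shares of all genes were those given above. GAS6 has 2 antisense members. GAS6-AS1 was not called in any contrast, while GAS6-AS2, 36 bases from the start of GAS6, had 13 to 31 reads in shControl and 6 to 12 in shBMAL1 and fell by 1.06 ± 0.43, a call lost without the third library of shControl (-0.63) or of shBMAL1 (-0.81). Of 6 listed members opposite transporter and channel genes, 2 were higher and 1 lower in each depletion, where the shares of all genes were again 40.5% and 41.3% in shARNT and 31.9% and 31.5% in shBMAL1. SLC7A11-AS1 rose by 0.81 ± 0.16 in shARNT and 1.05 ± 0.16 in shBMAL1, and SLC7A11, the cystine transporter gene, by 1.12 ± 0.06 and 1.02 ± 0.06.

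Levels of antisense and partner were compared per exonic base in 254 pairs. In shControl the antisense gene had a median of 0.248 of the partner's reads per base, and more than the partner in 61 pairs. In shARNT the median was 0.213, over 255 pairs. By reads alone, the antisense gene held more than 50% of the reads of the pair in 48 of 265 pairs in shControl, 49 in shBMAL1 and 45 in shARNT. Per base, AFAP1-AS1 was 43.6 times AFAP1 in shControl and 17.8 times in shARNT, and SSTR5-AS1 was 0.488 times SSTR5 in shControl and 4.68 times in shARNT. DDX11-AS1, HOXC-AS1, ZNF32-AS1 and PAXIP1-AS2 were called in none of the 3 contrasts.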

How the data were processed

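RNA of A498 cells, 9 libraries with 3 per hairpin, was sequenced as stranded mRNA on a DNBSEQ platform. The deposited values are estimated counts per gene, made by the authors as linear total reads in which 0.05 stands for no read and some values are not whole. The study's methods name GRCh37 with SeqMan NGen and ArrayStar, whereas the submitters' processing notes name hg38, STAR and DESeq2 without saying where each was used. The annotation release, the use of strand in counting and the treatment of reads that match several genes are not given in the sources used here.

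Values of 0.05 were set to 0, 43 gene names on more than 1 row were summed, 28 rows whose names had become dates were kept apart, and fractions were rounded for the tests. edgeR 4.0.16 (R 4.3.3, limma 3.58.1) was run with TMM scaling, filterByExpr and the quasi-likelihood F-test on all 9 libraries in 1 fit, with Benjamini-Hochberg adjustment over 15551 genes and a call at an adjusted p under 0.1, the level used in the study. CPM values use TMM-scaled library sizes. All 276 members and 249 of 261 partners passed the filter. The fit was tested on simulated data in which few genes changed, equally often up and down. Such data differ from these libraries, where most genes were called, so that test says nothing about the scaling or the called shares. Alternatives were library size or DESeq2 1.42.0 size factors, no filter, the DESeq2 test, only the 6 libraries compared, a replicate block, other thresholds, no fractions, and leaving out each library. Nothing in the labels says that the replicates came from separate cultures, so p-values measure the spread between these libraries.

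Positions and exon overlap came from GENCODE 44 lifted to GRCh37, and promoters from RefSeq on GRCh38.p14. Tables and figures were made with Python 3.11.15, pandas 2.3.3 and matplotlib 3.10.9. Named members were, per contrast, the 6 largest rises and falls among called members whose groups did not overlap, the 5 pairs with the largest changes in the same and in opposite directions, the 8 most abundant members, the members next to the read limit and a fixed list. RAD21-AS1, SLC7A11-AS1, HOXA-AS4, ZNF32-AS1, PAXIP1-AS2 and the members that are exceptions in the sums of fractions fall outside that rule and were named after their values were seen. PCNA-AS1, SGOL1-AS1, SPAG5-AS1 and HLTF-AS1 are named only as absent from a list. The members and lists were chosen with earlier results of these data known.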

Additional observations from a re-analysis of the deposited data

Results flagged for a closer look

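Several members were called in opposite directions after ARNT and after BMAL1 depletion, with a called difference between shARNT and shBMAL1 in the same edgeR fit. Groups of 3 libraries are too small for a test of single outlying libraries. The largest differences, as log2 of shARNT over shBMAL1, were -5.88 for SNAP25-AS1, 4.35 for NPPA-AS1, -3.90 for MRPL23-AS1, 3.32 for FBXL19-AS1 and -3.11 for C1QTNF1-AS1. SNAP25-AS1, NPPA-AS1 and MRPL23-AS1 each had fewer than 10 reads per library in at least 1 group and, with ARHGEF26-AS1, reached the mean of 20 reads only through the group where they were highest, so their differences were partly set by the choice of members. ARHGEF26-AS1 (2.27) and PPP1R26-AS1 (2.20) were higher in shARNT, and TMEM161B-AS1 (-2.15) and LRP4-AS1 (-1.80) were lower. SLC2A1-AS1 stood at -1.47, NR2F1-AS1 at -1.25, TMPO-AS1 at 1.20, AFAP1-AS1 at -1.19 and MAFG-AS1 at -1.03. HOXA-AS2 (-0.92) and HOXA-AS3 (-0.67) met the same criterion, and their falls against shControl in shARNT were not called with library size alone.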

How the results depend on the processing

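With library size alone in place of TMM the median log2 fold change of the members became 0.061 for shARNT, 0.025 for shBMAL1 and -0.019 for the direct contrast, and all genes moved up with them, by 0.24, 0.05 and 0.19. Under the same setting OIP5-AS1 (0.23), TP73-AS1 (0.21) and FOXD2-AS1 (0.22) turned from slightly lower to higher in shARNT against shControl, and HIF1A-AS2 (0.033) turned in the direct contrast. Asking for a change of at least 1.5-fold left 16 opposite pairs in shARNT, 24 higher and 31 lower members with 16 same and 0 opposite pairs in shBMAL1, and 68 same and 13 opposite pairs in the direct contrast, by construction. With a mean of at least 50 reads the medians were -0.24 in shARNT and -0.046 in shBMAL1. Without members that hold fractions, 50 members were higher in shARNT with a median of -0.22 and 71 same pairs, 31 were higher in shBMAL1 with a median of -0.055, 40 same and 10 opposite pairs, and 49 were higher in the direct contrast with 79 same pairs, on fewer members. Pairs that share no exonic base numbered 28 same and 14 opposite for shARNT, 12 and 5 for shBMAL1 and 31 and 11 for the direct contrast, and those that share bases had 10 opposite in shBMAL1. Leaving out 1 library at a time gave 76 to 81 higher and 110 to 119 lower members in shARNT, a median of -0.23 to -0.16, 104 to 112 same and 41 to 49 opposite pairs. In shBMAL1 the ranges were 53 to 60, 61 to 71, -0.042 to -0.0026, 62 to 75 and 13 to 17, and in the direct contrast 70 to 78, 120 to 131, -0.23 to -0.19, 111 to 128 and 35 to 46. The replicate block gave 81 higher and 117 lower members for shARNT, 59 and 72 for shBMAL1 and 75 and 125 for the direct contrast, with 110 and 50, 74 and 18, and 120 and 45 same and opposite pairs. Deviations from the group mean correlated by -0.04 to 0.08 between libraries with the same number. Between libraries with different numbers they correlated by -0.08 to 0.09. Such values cannot show whether libraries shared a culture or a batch. Of 3070 values for 64 named members under the alternatives, 2977 had the same call status as in the main edgeR fit. A further 69 lost the call and 20 gained it, and 45 of the 69 came from leaving out a library. Another 4 changed sign while called in at least 1 of the fits. Sign changes of values called in neither fit were not counted apart and stand among the 2977. The lost calls include abundant members such as HIF1A-AS2 and PSMG3-AS1, and their cause was not tested. Members with 20 to 50 reads had a median standard error of 0.32 in shARNT against shControl, so small differences in them were not detectable at this depth.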
